A study of Mus musculus with 2 samples.

Results

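Peaks of chromatin bound with anti-Flag antibody, for tagged Oct4, and then with the lectin sWGA were described at 8 genes. These genes are targets or feedback inhibitors of the LIF, BMP and FGF pathways of mouse embryonic stem cells. The loci were Socs3 for LIF, Id1, Id2, Id3 and Smad7 for BMP, and Spry2, Spry4 and Dusp6 for FGF. A site was a member when the summit of a peak in the list called on the sWGA library fell inside a fixed window of 80 to 110 kb set for that gene, on build mm9. For LIF the window ran from 117790000 to 117870000 on chromosome 11. The BMP windows ran from 152520000 to 152600000 on chromosome 2 (Id1), 25740000 to 25820000 on chromosome 12 (Id2), 135660000 to 135740000 on chromosome 4 (Id3) and 75490000 to 75600000 on chromosome 18 (Smad7). The FGF windows ran from 106250000 to 106340000 on chromosome 14 (Spry2), 38700000 to 38800000 on chromosome 18 (Spry4) and 98680000 to 98770000 on chromosome 10 (Dusp6). The rule gave 30 peaks out of 33783, and each of the 8 windows held at least 1. The genes' own starts and exons could not be placed on mm9 with the references used here, so a peak is assigned to a window and not to a promoter, intron or exon. Other protein-coding genes adjoin each locus, such as Tha1 and Pgs1 at Socs3 and Rpl11 and E2f2 at Id3. Whether a peak belongs to the named gene or to a neighbour was not determined.

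The cells were ZHBTc4 F-Oct4, a mouse embryonic stem cell line carrying Flag-tagged Oct4. The parental ZHBTc4 line is known for Oct4 supplied by a tetracycline-repressible transgene in place of the inactivated endogenous alleles, and how the tagged protein is driven is not given in the labels. Both groups came from this line, and chromatin of both was first bound with anti-Flag antibody. The sWGA group was then bound to beads carrying sWGA, a lectin for N-acetylglucosamine, whereas the control group went through a second step that the labels call input, IgG and plain agarose in different places. Each group was 1 library, so differences have no replicate error, no test between the groups was run, and intervals below cover counting error only. The sWGA library held 6129874 tags after filtering and the control 78351, which made the sWGA library 78.2 times deeper. Before filtering the totals were 16695056 and 366466 tags. The filter's duplicate limits were unequal, at 2 tags for sWGA and 1 for the control. Chromatin was cross-linked, so Oct4 and a protein beside it cannot be told apart as what the lectin held.

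LIF acts through its receptor and the kinase JAK to activate the transcription factor STAT3, and Socs3 is a STAT3 target whose product inhibits that signalling. BMP ligands activate SMAD1 and SMAD5, which switch on Id1, Id2 and Id3, inhibitors of basic helix-loop-helix factors, and Smad7, an inhibitory SMAD that blocks the receptors. FGF drives the ERK cascade, and the Sprouty proteins Spry2 and Spry4 and the ERK phosphatase Dusp6 restrain it. LIF and BMP signalling are known to favour self-renewal of these cells, and FGF signalling to favour exit from it.

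The sequence before the start of the gene is shown for the locus with the most peaks, Socs3, and for the locus with the most tags, Spry2. Both are the 250 bases before the RefSeq start on GRCm38.p6, minus strand, at chr11:117969367-117969616 for Socs3 and at chr14:105896820-105897069 for Spry2. Capitals mark matches to TTCNNNGAA, the type of element bound by STAT factors, and to GGCGCC, a GC-rich element bound by BMP SMADs. Both elements read the same on either strand.
Socs3: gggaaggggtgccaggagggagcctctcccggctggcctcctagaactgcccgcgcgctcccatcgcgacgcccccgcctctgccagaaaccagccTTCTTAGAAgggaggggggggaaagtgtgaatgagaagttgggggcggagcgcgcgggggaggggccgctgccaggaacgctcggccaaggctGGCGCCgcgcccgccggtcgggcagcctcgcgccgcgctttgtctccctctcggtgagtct
Spry2: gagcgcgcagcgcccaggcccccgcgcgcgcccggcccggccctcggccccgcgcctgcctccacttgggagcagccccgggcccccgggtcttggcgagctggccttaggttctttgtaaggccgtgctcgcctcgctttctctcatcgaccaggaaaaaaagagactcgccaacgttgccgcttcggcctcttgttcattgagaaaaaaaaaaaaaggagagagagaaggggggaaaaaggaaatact
The Socs3 stretch held TTCTTAGAA, starting 154 bases before the gene's start, and GGCGCC, starting 61 bases before it. The promoter table covered 5 of the 8 loci (Socs3, Id2, Id3, Spry2 and Dusp6). TTCNNNGAA was present in 1 of these 5, Socs3, and in 7.02% of the 32851 promoter stretches of the same length. GGCGCC was present in Socs3 and Id2, and in 9.59% of all stretches. The octamer ATGCAAAT, the classical element of Oct factors, searched on both strands, was present in 0 of the 5 and in 1.60% of all stretches. No motif searched overlapped another in these stretches. Since the peaks are on mm9 and these sequences on GRCm38, whether any peak covers these stretches was not measured.

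The Socs3 window was the most densely occupied of the 8. Its 80 kb held 8 peaks with 106 tags, or 100 peaks per Mb (95% Poisson interval 43.2 to 197). Over all autosomes the list held 13.4 peaks per Mb. When the autosomes were cut into fixed windows of 80 kb, 56.7% held at least 1 peak, and 0.253% held 8 or more. The strongest Socs3 peak, at 117836666 to 117837203, held 29 tags (95% Poisson interval 19.4 to 41.6) and scored 257.72 at a fold of 43.3. The score, as deposited, is −log10 of the p-value times 10, and the fold is summit height over expected background. In the whole list 8.16% of peaks held as many tags. It stood between a pair of weak peaks, with summits 822 bp to one side and 889 bp to the other. The first, at 117836017 to 117836310, held 9 tags (score 68.9, fold 17.71), and the second, at 117837736 to 117838157, held 12 (score 85.18, fold 11.81). These formed the only group of neighbours at Socs3. A further peak at 117830760 to 117831129 held 15 tags and scored 124.74 at a fold of 21.65. The other 4 peaks held 9 to 12 tags and were spread across the window. The lower-coordinate ones lay at 117793468 to 117793892 (12 tags, score 84.82, fold 15.75) and at 117809864 to 117810213 (10 tags, score 74.0, fold 11.81). The higher-coordinate ones lay at 117847988 to 117848387 (10 tags, score 68.26, fold 9.84) and at 117868901 to 117869357 (9 tags, score 53.92, fold 13.78). The summit of the last was 759 bp from the edge of the window. Socs3 thus had 1 moderately strong site with close neighbours and a row of sites at the weakest tag numbers that the caller lists. Of its 8 peaks, 2 scored at least 100 (25%, exact 95% interval 3.19 to 65.1). The share among all listed peaks, 33.9%, lay inside that interval.

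For the width of the windows, sites at the BMP loci were sparser than at Socs3. The 4 BMP windows held 9 peaks and 128 tags in 350 kb, which is 25.7 peaks per Mb (11.8 to 48.8). Id1 and Id3 held 1 weak peak each, and Id2 and Smad7 held the other 7. The single Id1 peak, on chromosome 2 at 152552680 to 152552973, held only 9 tags, which is the lowest number in the list, and scored 68.9 at a fold of 17.71. The single Id3 peak, on chromosome 4 at 135735931 to 135736182, held 10 tags and scored 101.12 at a fold of 19.68, and its summit was 3944 bp from the edge of the window. In both, every tag of the peak reached the summit, so that each was a single compact stack.

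At Id2, on chromosome 12, 4 peaks held 51 tags. Of these, 3 formed a group with summits 4438 bp and 2084 bp apart. The strongest of the group, at 25783546 to 25784235, held 18 tags and scored 112.81 at a fold of 21.65. Its neighbours held 11 tags each, at 25776997 to 25777452 (score 71.82, fold 13.78) and at 25781642 to 25782003 (score 82.63, fold 17.71). The remaining peak, at 25739907 to 25740166, held 11 tags and scored 112.54 at a fold of 21.65, and its summit was 36 bp inside the window, so that a slightly narrower window would leave it out. In fixed autosomal windows of the same width, 5.78% held 4 peaks or more.

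Smad7 carried the strongest peak of the BMP group. On chromosome 18, at 75520354 to 75521069, it held 36 tags (25.2 to 49.8) and scored 304.21 at a fold of 55.11, and 4.96% of listed peaks held as many. That peak made up 62.1% of the 58 tags in the Smad7 peaks. The other 2 lay 16.1 and 10.4 kb to its lower-coordinate side, at 75504416 to 75504818 (13 tags, score 97.82, fold 17.71) and at 75510191 to 75510568 (9 tags, score 61.16, fold 13.78). The list had no peak in the rest of the 110 kb window. Windows of this width held at least 1 peak in 66.5% of cases along the autosomes and at least 3 in 20.4%.

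The FGF loci held the most tags. Their 3 windows held 13 peaks and 308 tags in 280 kb, or 46.4 peaks per Mb (24.7 to 79.4). Spry2 and Spry4 held 11 of the 13 peaks and Dusp6 2. The strongest member of all 30 lay at Spry2 on chromosome 14, at 106258163 to 106259653. It was also the longest, at 1491 bp, and held 81 tags (64.3 to 101) with a score of 682.68 and a fold of 49.2. Only 115 peaks of the list (0.340%) held as many tags. A second peak at 106260084 to 106260781, with its summit 2020 bp away, held 49 tags and scored 474.84 at a fold of 61.01. The caller's deposited FDR was 100% for both of these peaks. A weak peak followed after 755 bp, at 106261132 to 106261597 (11 tags, score 70.82, fold 15.75). The pair of strong peaks held 130 tags, 73.4% of those in the Spry2 peaks and 24.0% of those in all 30 members. Of fixed autosomal windows of 90 kb, 60.5% held a peak, 3.34% held 5 or more, and 0.211% held as many tags as the 177 of Spry2.

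The other 2 Spry2 peaks, 58955 bp and more further along, were the only members whose deposited fold pointed to a local background, from control tags nearby. Such a local background applied to 8.79% of all listed peaks. The peak at 106319839 to 106320377 held 24 tags but scored 55.36, which is what the caller's arithmetic gives with 2 control tags within 10 kb. At the genome-wide rate of the sWGA library it would have scored 197.5. The peak at 106332952 to 106333278 held 12 tags and scored 55.16, as 1 control tag within 10 kb gives, in place of 98.33. Their deposited folds of 4.95 and 8.25 were accordingly the lowest of the 30 although other members held fewer tags. An evenly spread control library would put 3.77 tags into the whole 90 kb window, so these scores rest on 1 or 2 control tags.

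At Spry4, on chromosome 18, 6 peaks with 111 tags were scattered over 75.3 kb. The strongest, at 38795545 to 38796521, held 40 tags (28.6 to 54.5) and scored 301.55 at a fold of 23.62, with its summit 3971 bp from the edge of the window. The next, at 38760905 to 38761667, held 27 tags and scored 193.84 at a fold of 21.65. A weak peak adjoined it with a summit 627 bp away, at 38761748 to 38762155 (9 tags, score 58.22, fold 11.81). The strong Spry4 peaks were 34.8 kb apart, whereas those of Spry2 stood side by side. The other 3 lay further to the lower-coordinate side. They were at 38720556 to 38720966 (10 tags, score 67.11, fold 11.81), at 38732279 to 38732722 (14 tags, score 92.47, fold 15.75) and at 38752610 to 38753038 (11 tags, score 74.65, fold 15.75). In fixed windows of 100 kb, 63.7% held a peak and 2.27% held 6 or more.

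Dusp6 held weak sites only. Its window on chromosome 10 held 2 peaks of 10 tags each, at 98761285 to 98761679 and at 98762126 to 98762555, with summits 814 bp apart, scores of 68.8 and 65.2 and a fold of 11.81 each. Neither reached a score of 100, and 84.0% of listed peaks held at least 10 tags. The Dusp6 peaks gave 22.2 tags per 100 kb of window (13.6 to 34.3), against 197 (169 to 228) at Spry2 and 111 (91.3 to 134) at Spry4.

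**Figure D1:**
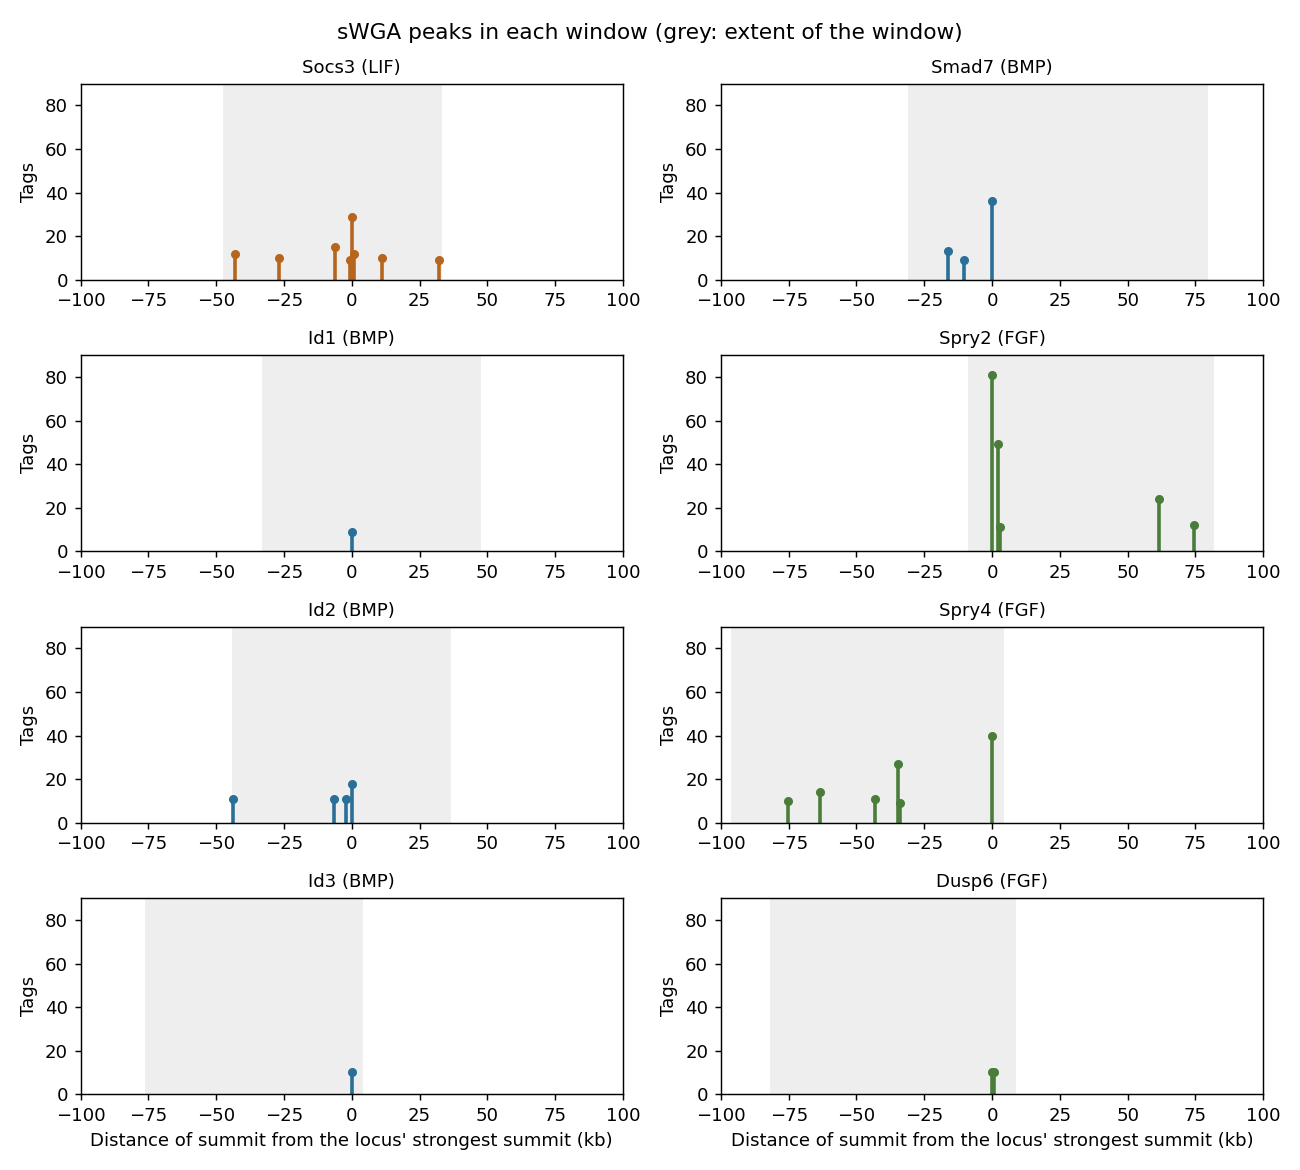
Tags in each sWGA peak (vertical axis) against the distance of its summit in kb from the strongest summit of the same locus (horizontal axis), 1 panel per locus, coloured by pathway. Grey marks the extent of the window. Spry2 shows its 81-tag and 49-tag peaks side by side, Socs3 shows 8 peaks around 1 of 29 tags, and Id1 and Id3 show 1 peak each.

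Compared by pathway, the Socs3 window and the FGF windows held more tags in peaks for their width than the BMP windows. The values were 132 tags per 100 kb for LIF, 110 for FGF and 36.6 for BMP. LIF exceeded BMP by 3.62 times (95% exact binomial interval 2.77 to 4.72) and FGF exceeded BMP by 3.01 times (2.44 to 3.73). LIF over FGF was 1.20 times (0.957 to 1.51), an interval that includes equality. The FGF value rested in part on the strong Spry2 pair. Without those 2 peaks FGF stood at 63.6 tags per 100 kb, 1.74 times BMP (1.38 to 2.20), and LIF at 2.08 times FGF (1.62 to 2.67). It rested on the window edges as well: windows narrowed by 10 kb on each side drop the 81-tag Spry2 peak and the 40-tag Spry4 peak, and FGF over BMP was then 1.78 times (1.38 to 2.30) and LIF over FGF 2.01 times (1.52 to 2.64). With windows widened by 20 kb on each side FGF over BMP was 2.47 times (2.07 to 2.95), LIF over BMP 2.33 times (1.82 to 2.97) and LIF over FGF 0.945 times (0.754 to 1.18). These intervals count every tag as independent although the tags of a pathway lie in a few peaks, so they are too narrow for a comparison of pathways. By locus the pathways overlapped, since Dusp6 (22.2 tags per 100 kb) lay below Id2 (63.8) and Smad7 (52.7).

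By number of sites LIF held 3.89 times as many peaks per Mb as BMP (1.31 to 11.4), but 2.92 times (0.854 to 9.18) when summits within 1 kb were counted as 1 site and 3.75 times (1.04 to 13.0) when those within 5 kb were. FGF over BMP was 1.81 times (0.714 to 4.79), and LIF over FGF 2.15 times (0.774 to 5.61). LIF is represented by 1 gene, and loci varied within each pathway. Among BMP loci the tags ran from 9 at Id1 to 58 at Smad7, and among FGF loci from 20 at Dusp6 to 177 at Spry2. The order by tags per 100 kb was Spry2, Socs3, Spry4, Id2, Smad7, Dusp6, Id3 and Id1. Counting intervals of neighbours in that order overlapped for Socs3 with Spry4, for Id2 with Smad7, for Dusp6 with Id3 and for Id3 with Id1. With the windows as set, they did not overlap for Spry2 with Socs3, Spry4 with Id2 or Smad7 with Dusp6. With the narrowed windows Socs3, at 142 tags per 100 kb (113 to 175), stood before Spry2, at 120 (95.7 to 149), with overlapping intervals, so the first place of Spry2 depends on the window edge. Tags were pooled over peaks of unequal strength, and these intervals do not cover the spread between libraries.

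**Figure D2:**
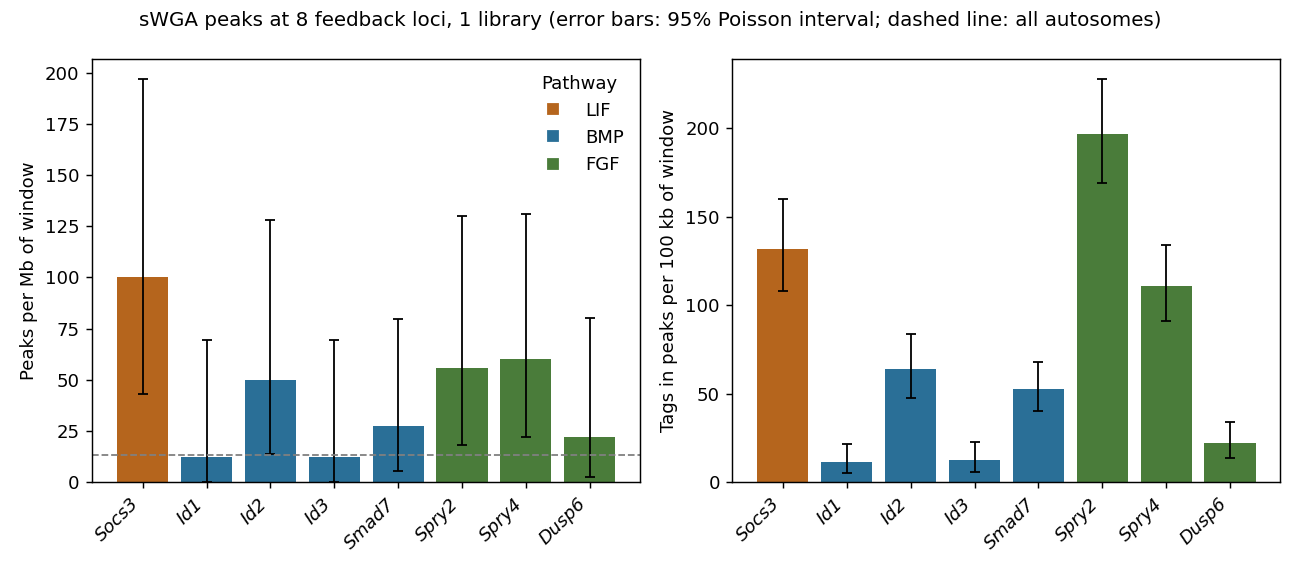
Peaks per Mb of window (left) and tags in peaks per 100 kb of window (right) at each locus, from the single sWGA library, coloured by pathway, with 95% Poisson intervals as error bars. The dashed line is the 13.4 peaks per Mb of all autosomes. Socs3 has the most peaks for its width and Spry2 the most tags, at 197 per 100 kb.

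As single sites the members had tag numbers near those of the whole list. Their median was 11 tags, as over all 33783 peaks, with 9 to 81 tags among members. Of the 30, 10 (33.3%) scored at least 100, where 33.9% of all peaks did, and 8 (26.7%, exact 95% interval 12.3 to 45.9) held at least 18 tags, where 21.4% did. The share of 9 to 12 tags was 63.3% among members and 62.3% in the list. Strong members of at least 18 tags were found at 5 of the 8 loci (Socs3, Id2, Smad7, Spry2 and Spry4), and a score of at least 100 at 6. Id3 was among the latter only by its 10-tag peak, deposited at 101.12 but worth 88.42 at the genome-wide rate.

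The shape of the strong members varied. From the deposited fold, the number of tags stacked at the summit can be read, since 1 tag there is worth a fold of 1.97 against the genome-wide background. Among listed peaks of at least 18 tags with that background, the summit held a median of 66.7% of the peak's tags, with quartiles of 52.6% and 77.8%. The strongest peaks of Socs3 and Smad7, with 22 of 29 tags (75.9%) and 28 of 36 tags (77.8%) at the summit, lay no higher than the upper quartile. The 81-tag Spry2 peak was broad, with 25 tags (30.9%) at its summit, and 0.907% of the reference peaks had a share that low. The reference peaks were not matched to it in tag number or length. Both strong Spry4 peaks were broad too, with 12 of 40 tags (30.0%) and 11 of 27 (40.7%). The 49-tag Spry2 peak, with 31 tags at the summit (63.3%), was taller than its 81-tag neighbour. Of the 5 strong members at FGF loci 4 lay below the lower quartile, among them the 24-tag Spry2 peak with a local background, and of the 3 at Socs3, Id2 and Smad7 none did. These counts are a description of few sites, 3 of them at 1 locus, and no test was made. Whether a broad peak is 1 site or several that overlap was not tested.

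**Figure D3:**
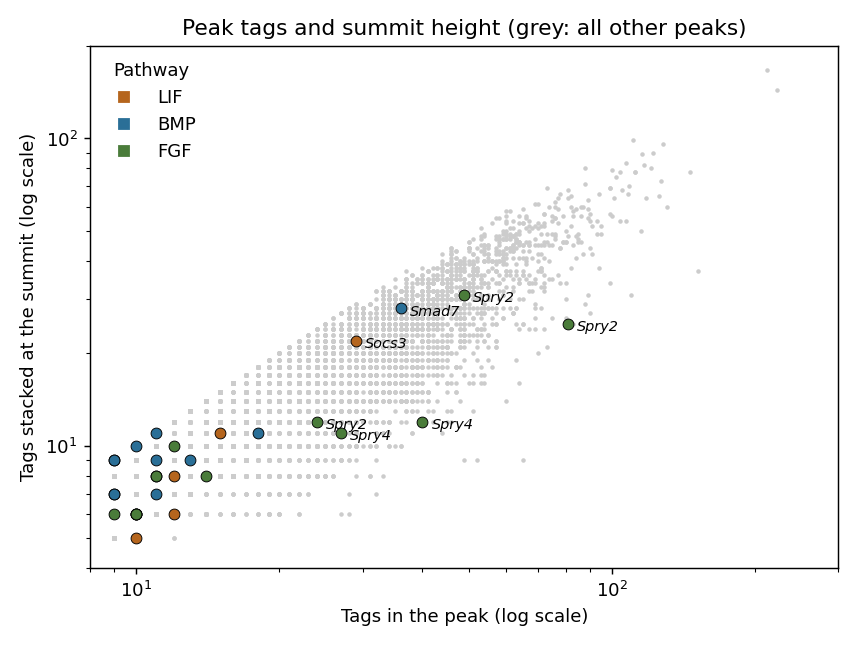
Tags stacked at the summit (vertical axis, log scale) against tags in the peak (horizontal axis, log scale). Coloured points are the 30 members by pathway, with those of at least 24 tags named, and grey points are listed peaks with the genome-wide background. The 81-tag Spry2 peak and the 40-tag Spry4 peak lie low for their tags, with 25 and 12 tags at the summit.

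Members often stood close together. Of the 30 peaks, 9 (30%, exact 95% interval 14.7 to 49.4) had another member's summit within 1 kb, where 7.60% of all listed peaks had a neighbour at that distance. Within 5 kb the share was 43.3% (25.5 to 62.6), against 25.9% in the list. The 9 peaks were the Socs3 group of 3, a pair each at Spry2, Spry4 and Dusp6, and none at a BMP locus. Neighbouring peaks may be parts of 1 enriched stretch, so these intervals, which treat peaks as independent, are too narrow. The list shares were not matched for density, and the windows held 42.3 peaks per Mb against 13.4 over all autosomes.

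The windows as a whole lay in peak-rich parts of the genome. They held 42.3 peaks per Mb (28.5 to 60.3), 3.15 times (2.12 to 4.49) the density of the rest of the autosomes, and 3.10 times (1.48 to 5.70) among peaks that scored at least 100. Flanks of the same width on both sides of each window held 41 peaks, or 28.9 per Mb. The windows exceeded these flanks by 1.46 times (0.882 to 2.40), an interval that includes equality, and among peaks scoring at least 100 the ratio was 1 (0.418 to 2.24). Against flanks that began 100 kb away it was 1.76 times (1.04 to 2.97). The intervals of these ratios treat peaks as independent and are too narrow, since 9 of the 30 members had another within 1 kb. Both sets of flanks also lay above the autosomal 13.4 peaks per Mb, at 28.9 and 23.9.

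The loci varied in this respect. Id2 had 4 peaks inside and 1 in its adjacent flanks, and Spry4 had 6 inside and 1 in its flanks. Socs3 had 8 inside and 6 in the flanks, which together are 2 times as wide, and Spry2 had 5 and 5. Id1 had 1 peak inside and 9 in the adjacent flanks, but 1 in the flanks that begin 100 kb away. Id3 had 1 and 4, Smad7 3 and 9, and Dusp6 2 and 6. Against the adjacent flanks, peaks were therefore denser inside the windows of Socs3, Id2, Spry2 and Spry4, and less dense inside those of Id1, Id3, Smad7 and Dusp6. Against the far flanks Id1 turned, with 12.5 peaks per Mb inside and 6.25 outside, and the other 7 kept their side. Spry2 (55.6 against 38.9 per Mb) and Smad7 (27.3 against 31.8) differed little there for 5 and 3 peaks. For Dusp6 a peak of 23 tags lay 7.94 kb outside the window, at 98671909 to 98672463, and was stronger than both peaks inside. Id1 had a peak of 16 tags 7.38 kb outside, at 152512486 to 152513007, also stronger than its only member. With each window widened by 20 kb on both sides, Id1 and Dusp6 held 4 peaks each.

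**Figure D4:**
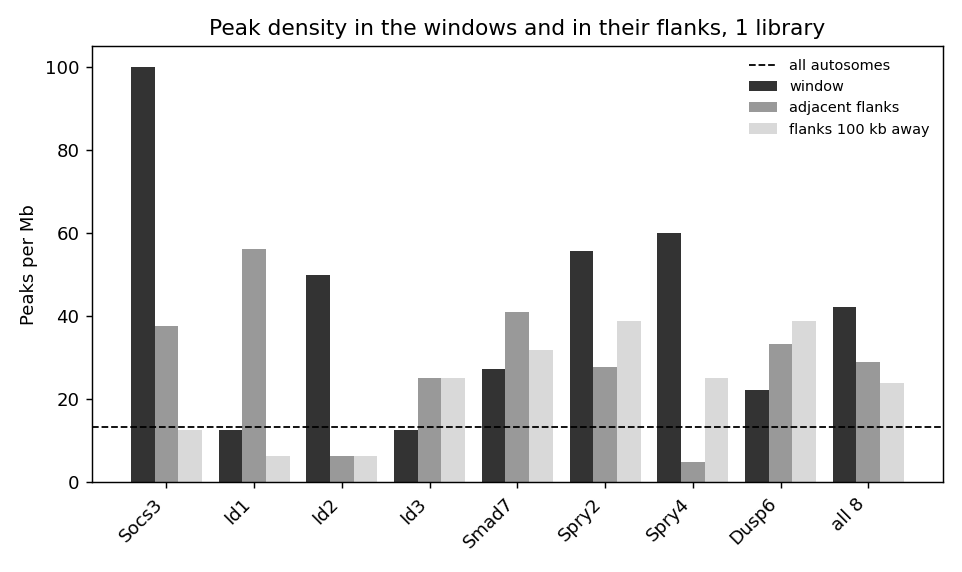
Peaks per Mb (vertical axis) in each window, in flanks of the same width directly beside it and in flanks that begin 100 kb away, for each locus and for all 8 together, with the autosomal density as a dashed line. Socs3, Id2, Spry2 and Spry4 stand above their adjacent flanks, and Id1, Id3, Smad7 and Dusp6 below them. Id1 stands above its far flanks.

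The control list, of 750 regions, held 0 regions in the 8 windows. The nearest control region lay 245 kb from a window, at Id3, and the farthest nearest one 5642 kb away, at Id2. An even spread would put 3.35 control tags and 262 sWGA tags into a window of 80 kb. Scaled to the control's depth, the 81 tags of the strongest member are 1.04 control tags, so that the control list could not show sites of this strength. Its silence here is no measure of how the second steps differ. All but 2 of the 30 members had a fold against the genome-wide rate of the sWGA library itself. Whether they depend on the lectin step or on Oct4 was therefore not tested.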

How the data were processed

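Sequential chromatin immunoprecipitation was sequenced in 1 sWGA and 1 control library from ZHBTc4 F-Oct4 cells. The authors called peaks with MACS 1.4.1 (p cutoff 1e-05), with a fragment length of 155 bp, local windows of 1 kb and 10 kb and duplicate limits of 2 tags (sWGA) and 1 (control), per the file headers. Positions are on mm9, per the submitters' processing notes. The aligner is not given in the sources used here. Tag counts were deposited as whole tags per peak without scaling. The deposited score is −log10 of the p-value times 10. The authors' fold is the ratio of summit height to expected background, and their deposited FDR is a percent.

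Members were peaks whose summit (start plus summit offset) lay in the 8 windows. The members, lists and alternatives were chosen with earlier results of these data known. The rule for named genes took all 8 loci with every peak in them, and other pathway genes only with an mm9 annotation, which was not used here. Counts have exact Poisson 95% intervals, shares Clopper-Pearson intervals and density ratios exact binomial ones, none of which covers PCR duplicates or replicate error. Fixed windows tiled the 19 autosomes up to the last listed region. A fold counted as whole tags within 0.01. Window counting and ratio intervals were tested on simulated data with independent counts, which does not cover clustered peaks or tags. Promoter stretches came from RefSeq (GRCm38.p6). Python 3.11.15, numpy 2.4.6, scipy 1.17.1 and pandas 2.3.3 were used. Alternatives covered score, tag, fold and FDR minimums or maximums, window edges, joined summits and other flanks.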

Additional observations from a re-analysis of the deposited data

How the results depend on the processing

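No paired analysis was possible because there was 1 library per group, and leaving out a replicate was not possible either. A score of at least 100 kept 10 of the 30 peaks (2 LIF, 4 BMP, 4 FGF), 316 tags, a median of 28 tags and 14.1 peaks per Mb. This split by pathway depends on the deposited scores. From tags and length at the genome-wide rate, the Id3 peak would score 88.42 and the Id2 peak at 25739907 would score 98.54, both under 100. The 14-tag Spry4 peak would score 102.6 in place of 92.47, and the 24-tag Spry2 peak 197.5 in place of 55.36. At least 18 tags kept 8 peaks (1 LIF, 2 BMP, 5 FGF) in 5 windows. An FDR of at most 5% kept 18 peaks (4 BMP, 8 FGF), and this limit removes the strongest peaks, since the caller's FDR rises with the score. The deposited FDR was 100% for both strong Spry2 peaks and 49.6% for the 36-tag Smad7 peak. It was 48.79% for the 40-tag Spry4 peak and 36.4% for the 29-tag Socs3 peak. These were the highest among the 30 members, so this measure does not rank the strongest peaks as the most certain. Windows narrowed by 10 kb on each side held 347 tags and 8 FGF peaks. They lost the 81-tag Spry2 and 40-tag Spry4 peaks, the Id3 peak and both Dusp6 peaks, so that FGF over BMP tags fell to 1.78 and LIF over FGF rose to 2.01. Windows widened by 20 kb held 673 tags, with LIF over FGF at 0.945, an interval that includes equality as the reported one does, and LIF over BMP at 2.33. These ratios under other window edges were added after seeing the data. Without the 2 strongest Spry2 peaks, a setting chosen after seeing the data, FGF over BMP tags moved from 3.01 to 1.74 and LIF over FGF from 1.20 to 2.08. Of the 67 alternative values for the main results, 43 stayed within 1.5 times the count or inside the interval of the reported value. Some of the 43 say nothing of stability. Joining summits cannot change the number of windows with a peak, and membership by overlap in place of summit gave the same counts. With tags of 9 to 12 in most members, counting error spans much of the range between weak sites.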

Other observations

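Some of the strongest peaks of these neighbourhoods stood outside the windows. The flanks that begin 100 kb from the Id3 window held a peak of 135 tags on chromosome 4 at 135873295 to 135874237, 134 kb from the window. It scored 1177.06, and 12 peaks of the list held as many tags. Its tags were more than those of any of the 30 members, while the Id3 window itself held 10. Beside Id1, a peak of 58 tags lay on chromosome 2 at 152673232 to 152673947, 73.5 kb outside the window, with a score of 592.83, against 9 tags inside. Near Spry4 a peak of 46 tags on chromosome 18 at 38543592 to 38544385, 156 kb outside, exceeded the 40 tags of the strongest Spry4 member. Which genes these peaks belong to was not determined here.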
